A study of Sus scrofa with 6 samples.

Results

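The contractile genes of vascular smooth muscle were followed in femoral arteries of pigs (Sus scrofa), sampled ex vivo at a puncture closed in 1 of 2 ways. The genes were ACTA2, CNN1, DES, MYLK, PLN and TPM2, and their probes were all non-control probes whose name in the array design is a pig RefSeq transcript of one of them. This gave 22 of 43603 probes, for 6 of the 2389 genes that could be named on the array. ACTA2 had 4 probes (transcript NM_001164650), CNN1 2 (NM_213878), DES 4 (NM_001001535), MYLK 1 (XM_001929078), PLN 6 (NM_214213) and TPM2 5 (NM_001129947). In 3 samples the puncture had been treated with TAG, the vascular glue under study, and in 3 with Exoseal, a marketed vascular closure device. All 6 punctures were on the left side, and neither genotype, breed, age nor time after closure is given in the sources used here. The titles set the groups. Exoseal replicate 1 is Exoseal by its title and source name, but its treatment entry reads TAG. Its array was scanned together with the 3 TAG arrays (slide 1), whereas Exoseal replicates 2 and 3 shared another scan (slide 2). A slide here means a shared scan date in the file headers, and no slide identifier was used. The labels do not say whether samples came from separate animals, so a p-value here gauges only the variation among these 6 samples, which may be technical.

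An artery constricts when its smooth muscle cells slide actin past myosin. Rising calcium binds calmodulin, calmodulin switches on myosin light chain kinase, and the kinase phosphorylates the regulatory light chain of myosin. Contractile smooth muscle cells are rich in alpha actin, calponin, tropomyosin and desmin, and after injury of a vessel they are known to lower these proteins, divide and lay down matrix. Of the 6 genes, ACTA2 encodes smooth muscle alpha actin, TPM2 encodes beta tropomyosin, which lies along actin, and CNN1 encodes calponin, an actin-binding inhibitor of the myosin motor. MYLK encodes myosin light chain kinase, DES encodes desmin, the muscle intermediate filament, and PLN encodes phospholamban, an inhibitor of the calcium pump of the sarcoplasmic reticulum.

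The arrays differed in brightness. On TAG arrays 35.0% to 41.4% of probes carried the scanner's flag for a signal well above background, with a mean of 37.6% ± 3.36 (SD, n = 3). On Exoseal arrays the range was 60.7% to 70.9% and the mean 64.4% ± 5.68 (SD, n = 3). The 75th percentile of the processed signal was 19.3 to 36.4 on TAG arrays and 61.0 to 151 on Exoseal arrays. A scaled value is the log2 processed signal after subtracting the log2 75th percentile of the same array, so 0 is the 75th percentile of that array. The members were bright enough to be seen on most arrays: 18 of the 22 probes were well above background on all 6, among them the brightest probe of each gene. Of the 14 smooth muscle markers listed, 7 were on the array, the 6 genes and MYOCD, and each was well above background on all 6 arrays.

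In the comparison of TAG with Exoseal, alpha actin rose at all 4 of its probes, by 3.53-fold to 5.82-fold. Desmin rose at 3 of 4 probes and calponin at 1 of 2. No probe of TPM2, MYLK or PLN passed the test, and no probe of any of the 6 genes fell. In all, 8 of the 18 member probes tested rose in the limma fit at an adjusted p of at most 0.05, against 7.06% of all 22720 probes tested that rose, 3.69% that fell and 10.8% that changed in either direction. In a fit of only probes well above background on all 6 arrays, 9 of 17 member probes rose, against 12.2% of all 12887. Probes of a gene read the same RNA. By gene, 2 of 6 rose by the brightest probe and 1 of 6 by the mean of probes. The shares over all tested were 6.59% and 6.20%, with each unnamed probe counted as a gene of its own. Among the brightest tested probes of named genes alone, 5.70% rose. The difference was positive for 15 of the 18 member probes tested. Their median was 1.23 on the log2 scale, against 0.08 over all probes tested. The other 4 probes were not tested: 3 PLN probes were well above background on only 2 arrays, and 1 TPM2 probe had an outlier spot on Exoseal replicate 2. The calls needed 5 of the 6 samples: without any single TAG sample, or without Exoseal replicate 2 or 3, limma called 0 of the member probes and 0 of all probes, while 4573 to 6426 probes had an unadjusted p under 0.05. Without Exoseal replicate 1, 10 member probes passed and 7715 of all probes. That fit sets slide 1 against slide 2, so treatment and slide cannot be told apart in it. The same holds below where that replicate is counted as TAG. With each array scaled to its median 2 passed. With slide as a block 3 passed, and within slide 1 alone 5 passed. Both of these fits set TAG against the single Exoseal array of slide 1, which has no spread of its own and is assumed to vary like the other arrays of the fit, the 3 TAG arrays alone within slide 1. With Exoseal replicate 1 counted as TAG, as its treatment entry reads, 5 member probes passed: the dim probes of CNN1, DES (2 of them) and TPM2 rose and MYLK fell, while the 4 ACTA2 probes and the brightest DES probe did not pass. In bulk tissue, fewer cells of a type and less RNA per cell cannot be told apart.

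**Figure D1:**
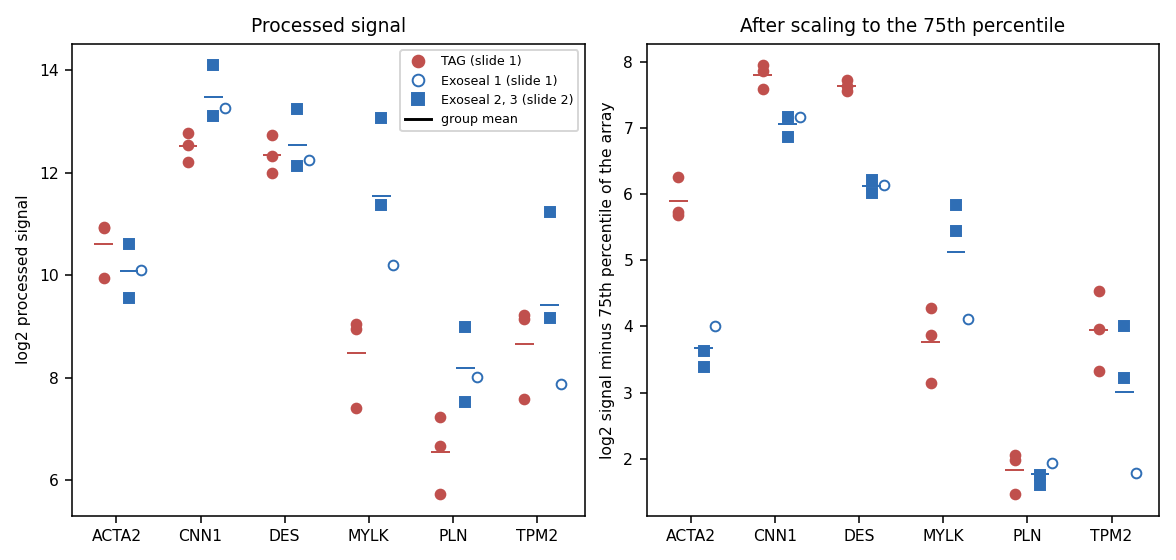
Log2 processed signal (left) and scaled log2 signal (right) of the brightest probe of each gene on each array, with TAG as filled circles, Exoseal replicate 1 as a hollow circle, Exoseal replicates 2 and 3 as squares, and group means as short lines. Before scaling the ACTA2 signals of the groups overlapped; after scaling the 3 TAG values, 5.69 to 6.26, lay above the 3 Exoseal values, 3.38 to 4.0.

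Alpha actin was higher in TAG at each of its probes. The processed signal of its brightest probe, A_72_P529904, was 1933, 1966 and 993 in TAG replicates 1 to 3 and 1095, 1570 and 753 in Exoseal replicates 1 to 3. These signals overlapped between groups, on arrays whose 75th percentiles did not. After scaling, the values were 5.73, 6.26 and 5.69 in TAG and 4.0, 3.38 and 3.63 in Exoseal, so every TAG array lay above every Exoseal array. The difference was 2.22 ± 0.43 (SE), or 4.66-fold, with a limma adjusted p of 0.0246. For A_72_P627171 the scaled values were 5.91, 6.19 and 5.99 in TAG and 3.38, 3.51 and 3.57 in Exoseal, a difference of 2.54 ± 0.40 (SE; adjusted p = 0.0221, limma). A_72_P521843 rose by 2.23 ± 0.40 (adjusted p = 0.0239, limma) and A_72_P678849 by 1.82 ± 0.40 (adjusted p = 0.0309, limma). Exoseal replicate 1 sat with the other Exoseal arrays: it differed from the mean of replicates 2 and 3 by -0.16 to 0.50 over the 4 probes. Measured against that replicate alone, on the same slide, the TAG means were higher by 1.62 to 2.65. Within slide 1, with that 1 Exoseal array and a spread from the TAG arrays alone, the adjusted p was 0.0294 to 0.0484 (limma). With Exoseal replicate 1 counted as TAG, none of the 4 passed, with adjusted p of 0.0501 to 0.0974 (limma). With slide as a block, 2 of the 4 passed, with adjusted p of 0.0134 to 0.0782 over the 4. With median scaling none of the 4 passed, with adjusted p of 0.0518 to 0.102. Actin genes share near-identical coding sequences, and whether these probes bind other actin transcripts was not tested; the actin of skeletal muscle, ACTA1, rose by 2.48 ± 0.40 (adjusted p = 0.0225, limma), and that of cardiac muscle, ACTC1, differed by 1.21 (adjusted p = 0.0977, limma).

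Beta tropomyosin did not pass, and its probes split into a bright and a dim kind. The brightest, A_72_P682229, had scaled values of 3.97, 4.53 and 3.32 in TAG and 1.78, 4.0 and 3.23 in Exoseal. The groups overlapped through Exoseal replicate 2, which lay inside the TAG range, and Exoseal replicate 1 was the lowest of the 6 arrays. The difference was 0.94 ± 0.62 (SE; adjusted p = 0.341, limma), with an Exoseal SD of 1.13 (n = 3). A_72_P031791 and A_72_P602563 overlapped between groups as well, with differences of 0.79 ± 0.52 (adjusted p = 0.334, limma) and 0.74 ± 0.61 (adjusted p = 0.448, limma). The untested A_72_P586401 did not overlap, with 3.77, 4.13 and 3.32 in TAG, 1.23, 3.27 and 3.09 in Exoseal and a difference of 1.21. For these 4 probes Exoseal replicate 1 lay below the mean of replicates 2 and 3, with differences of -1.07 to -1.95, so that within slide 1 TAG was higher by 1.50 to 2.51. Against that 1 Exoseal array of slide 1 the difference was 2.16 for A_72_P682229 and 1.99 for A_72_P602563. The array has no spread of its own, so these differences are given as a description. The dim probe, A_72_P600482, went the other way over the slides, with scaled values of 1.0, 1.51 and 1.01 in TAG and 0.33, -2.44 and -1.36 in Exoseal. Its difference was 2.33 ± 0.67 (adjusted p = 0.0542, limma), and Exoseal replicate 1 exceeded the other Exoseal arrays by 2.23. It passed without Exoseal replicate 1 (3.08, adjusted p = 2.3e-04, limma), in a fit where treatment and slide are the same division.

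Calponin was among the brightest transcripts of every artery. Its probe A_72_P035636 stood between 102nd and 251st from the top of 43603 probes on each array. The signal was 6999, 5975 and 4761 in TAG and 9793, 17498 and 8789 in Exoseal, so that before scaling every TAG array was below every Exoseal array. After scaling, with values of 7.59, 7.86 and 7.95 in TAG and 7.16, 6.86 and 7.17 in Exoseal, the order was turned. The difference of 0.73 ± 0.40 (SE; adjusted p = 0.249, limma) did not pass, and it was -0.37 with quantile normalisation and -0.39 in the authors' deposited table of processed values. The second probe, A_72_P441684, was dimmer, with signals of 195, 213 and 108 in TAG and 167, 99.1 and 52.8 in Exoseal. Its scaled values were 2.42, 3.05 and 2.48 against 1.29, -0.61 and -0.21, without overlap, and it rose by 2.49 ± 0.56 (5.63-fold, adjusted p = 0.0318, limma). Much of that distance lay within the Exoseal group: replicate 1 exceeded the mean of replicates 2 and 3 by 1.70. Within slide 1 TAG was higher by 1.36, and with slide as a block the adjusted p was 0.138 (limma).

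Myosin light chain kinase, the calcium-driven switch of contraction, had the lowest difference of scaled signal among the tested member probes. Its single probe, A_72_P505402, had signals of 533, 497 and 170 in TAG and 1184, 8629 and 2657 in Exoseal. Every TAG array was below every Exoseal array before scaling, and replicates 2 and 3 of Exoseal were the brightest. The scaled values were 3.87, 4.27 and 3.14 in TAG and 4.11, 5.84 and 5.45 in Exoseal, so Exoseal replicate 1 fell inside the TAG range. The difference of -1.37 ± 0.56 (SE) did not pass (adjusted p = 0.136, limma). Against Exoseal replicate 1 on the same slide it was -0.35. Without that replicate it was -1.88 and passed (adjusted p = 0.00763, limma), as it did with the replicate counted as TAG, at -1.79 (adjusted p = 0.0336, limma). Both of these fits set slide 1 against slide 2, so treatment and slide cannot be told apart in them.

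Desmin, which ties the contractile apparatus of a muscle cell to its dense bodies and membrane, was measured by 1 very bright and 3 dim probes. The bright one, A_72_P177466, had signals of 6833, 5131 and 4089 in TAG and 4840, 9745 and 4511 in Exoseal, which overlapped. Its scaled values were 7.55, 7.64 and 7.73 in TAG and 6.15, 6.01 and 6.21 in Exoseal, the narrowest TAG spread of all member probes (SD 0.09, n = 3) and an Exoseal SD of 0.10 (n = 3). The groups were far apart beside that spread, and the probe rose by 1.52 ± 0.39 (2.86-fold, adjusted p = 0.0429, limma). Exoseal replicate 1 differed from its 2 partners by 0.03, and within slide 1 TAG was higher by 1.50. With slide as a block the adjusted p was 0.0971 (limma), and with Exoseal replicate 1 counted as TAG it was 0.178 (limma). The size depended on the scaling: it was 1.06 with median scaling (adjusted p = 0.187, limma) and 0.75 with quantile normalisation (adjusted p = 0.210, limma).

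The dim desmin probes gave larger differences with wider spread. A_72_P684426 had scaled values of 2.62, 3.51 and 2.14 in TAG and 1.45, -1.12 and -1.06 in Exoseal, and rose by 3.0 ± 0.73 (adjusted p = 0.0367, limma). A_72_P601893 had 1.63, 2.35 and 1.39 against 0.57, -1.44 and -1.96, and rose by 2.73 ± 0.67 (adjusted p = 0.0368, limma). In both, Exoseal replicate 1 lay between the TAG arrays and its partners, 2.54 and 2.27 above the mean of replicates 2 and 3. Within slide 1 the differences were 1.30 and 1.22, and with slide as a block the adjusted p was 0.186 and 0.199 (limma). The faintest desmin probe, A_72_P350098, was well above background on 4 of 6 arrays and differed by 0.07 ± 0.60 (adjusted p = 0.952, limma), a sign that turned with the scaling.

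Phospholamban showed no difference that passed, and its 6 probes fell into 2 sets of 3. The brighter set was well above background everywhere. Its brightest probe, A_72_P035316, had scaled values of 2.06, 1.98 and 1.46 in TAG and 1.93, 1.76 and 1.60 in Exoseal, which overlapped, and differed by 0.07 ± 0.41 (SE; adjusted p = 0.928, limma). A_72_P583001 and A_72_P643028 differed by -0.13 ± 0.44 (adjusted p = 0.867, limma) and -0.04 ± 0.46 (adjusted p = 0.962, limma). These 3 differences spanned 0.20, the closest agreement among the genes with several tested probes. The dim set, A_72_P561499, A_72_P558589 and A_72_P584626, was well above background only on Exoseal replicates 2 and 3. The signal of A_72_P561499 was 2.84, 2.55 and 2.35 in TAG and 4.08, 178 and 49.5 in Exoseal. The set was thus not well above background on any of the 4 slide 1 arrays, Exoseal replicate 1 among them. No fold is given for it, since the bound set by background exceeded the Exoseal mean.

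The rank of a probe on its own array does not depend on scaling between arrays. Each rank is given as a percentile of all 43603 probes, 100 being the brightest, averaged over the probes of a gene. ACTA2 stood at 97.8, 98.0 and 97.9 in TAG and at 94.3, 92.6 and 93.2 in Exoseal, means of 97.9 ± 0.10 and 93.4 ± 0.86 (SD, n = 3). CNN1 stood at 95.4 ± 0.47 and 87.8 ± 3.80, and TPM2 at 92.5 ± 0.99 and 85.8 ± 0.75. In these 3 genes every TAG array ranked above every Exoseal array. For CNN1 this mean joined the brightest probe, at 99.5 in TAG and 99.6 in Exoseal, with a dim probe at 91.4 and 76.1. The brightest CNN1 probe alone overlapped between groups and differed by -0.17 percentile points (exact permutation p = 0.2). For TPM2 this mean joined bright probes, lowest on Exoseal replicate 1, with a dim probe, lowest on replicates 2 and 3. Alone, its 3 bright tested probes overlapped between groups in rank, and the brightest differed by 3.35 percentile points (exact permutation p = 0.2). MYLK was the reverse, with 95.0, 95.6 and 93.4 in TAG and 96.1, 98.8 and 98.0 in Exoseal. DES at 83.3 ± 3.93 and 74.3 ± 6.40, and PLN at 54.7 ± 1.77 and 66.6 ± 15.2, overlapped between groups. The brightest DES probe alone did not overlap and differed by 0.45 percentile points (exact permutation p = 0.1). For PLN the mean joined 3 probes at 84.8 to 87.8 in TAG and 84.1 to 86.5 in Exoseal with the dim set. That set stood at 19.0 to 25.5 in TAG and 43.6 to 56.1 in Exoseal. By an exact permutation test, two-sided, p was 0.1 for ACTA2, CNN1, TPM2 and MYLK, 0.2 for DES and 0.4 for PLN, or 0.15 to 0.40 after Benjamini-Hochberg adjustment over the 6 genes, and 3 arrays against 3 cannot give less than 0.1.

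**Figure D2:**
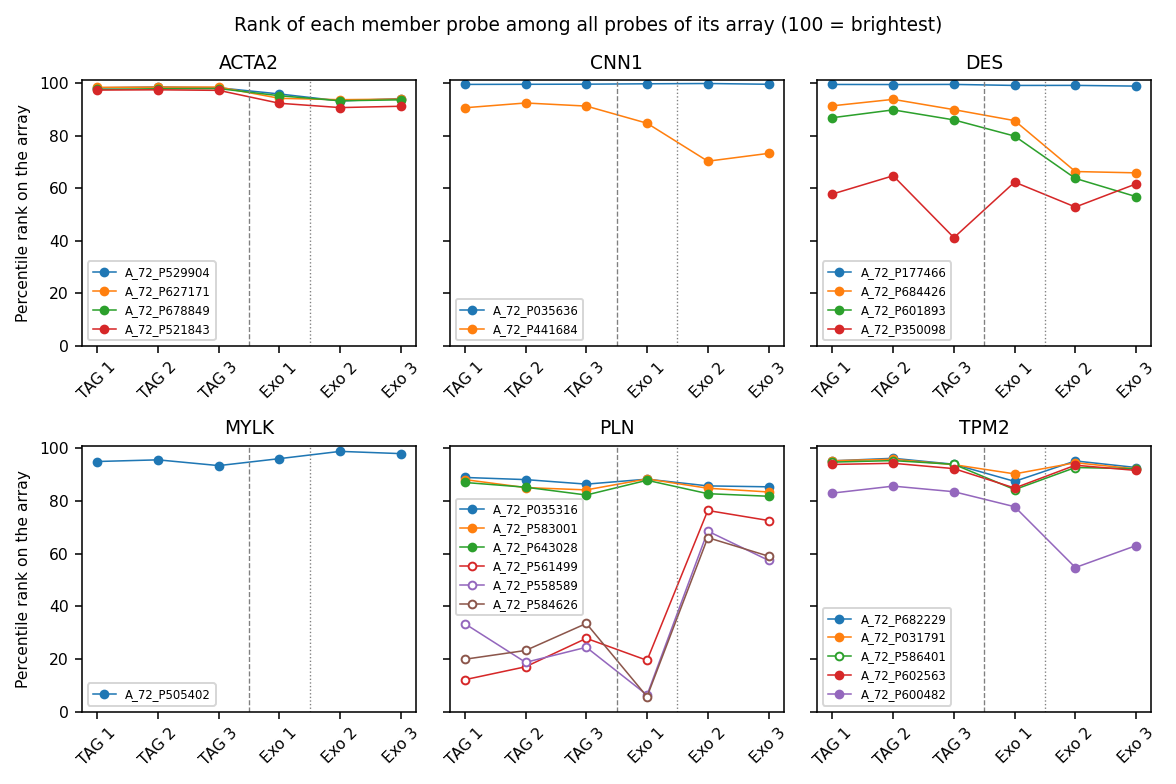
Percentile rank of each member probe among all probes of its array (y axis, 100 = brightest) on the 3 TAG and 3 Exoseal arrays (x axis). Dashed lines part the groups, dotted lines part the slides, and hollow points are probes that were not tested. The 4 ACTA2 lines run together and step down from TAG to Exoseal, while the 3 hollow PLN lines step up from Exoseal replicate 1 to replicates 2 and 3.

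By single probes, 9 of the 18 tested ranked higher on every TAG array than on every Exoseal array and 1, that of MYLK, ranked lower. The background was 18.6% of all tested probes higher and 19.5% lower. On the scaled signal 10 of 18 did not overlap, each with TAG higher, against a background of 20.2% with TAG higher and 16.2% with TAG lower. The brightest CNN1 probe parted the 2 measures. Its scaled values were higher in TAG without overlap, while its ranks overlapped, at 99.4 to 99.5 in TAG and 99.5 to 99.8 in Exoseal. The brightest DES probe held its order, 252nd to 272nd from the top in TAG and 412th to 533rd in Exoseal. On the unscaled signal none of the 18 was higher in TAG without overlap and 6 were lower, against 1.37% and 57.4% of all tested probes.

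Probes of the same gene mostly moved in the same direction. In the 5 genes with several tested probes, 10 of the 12 other probes had the sign of the brightest one, or 83.3%. Over 727 other named genes the share was 61.8% (1141 of 1846 probes). Agreement in size was less close: the differences of a gene's probes spanned 0.72 in ACTA2, 1.76 in CNN1, 2.93 in DES and 1.60 in TPM2, and the median span was 1.60 for the member genes and 1.33 for the others. The wide spans came from dim probes of DES, CNN1 and TPM2. Over the slides, 7 of the 18 tested member probes were lower on both slide 2 arrays than on all 4 slide 1 arrays, and 1 was higher, against 23.4% lower and 15.5% higher among all tested probes. With the untested probes, which were the dim PLN set and 1 TPM2 probe, 4 of 22 were higher. Of the 8 probes called, the 4 of ACTA2 and the brightest of DES differed between Exoseal replicate 1 and its partners by at most 0.50, and the other 3 by 1.70 to 2.54. Slide and treatment are in part the same division here, and the part of the slide in the values of the dim probes was not tested.

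**Figure D3:**
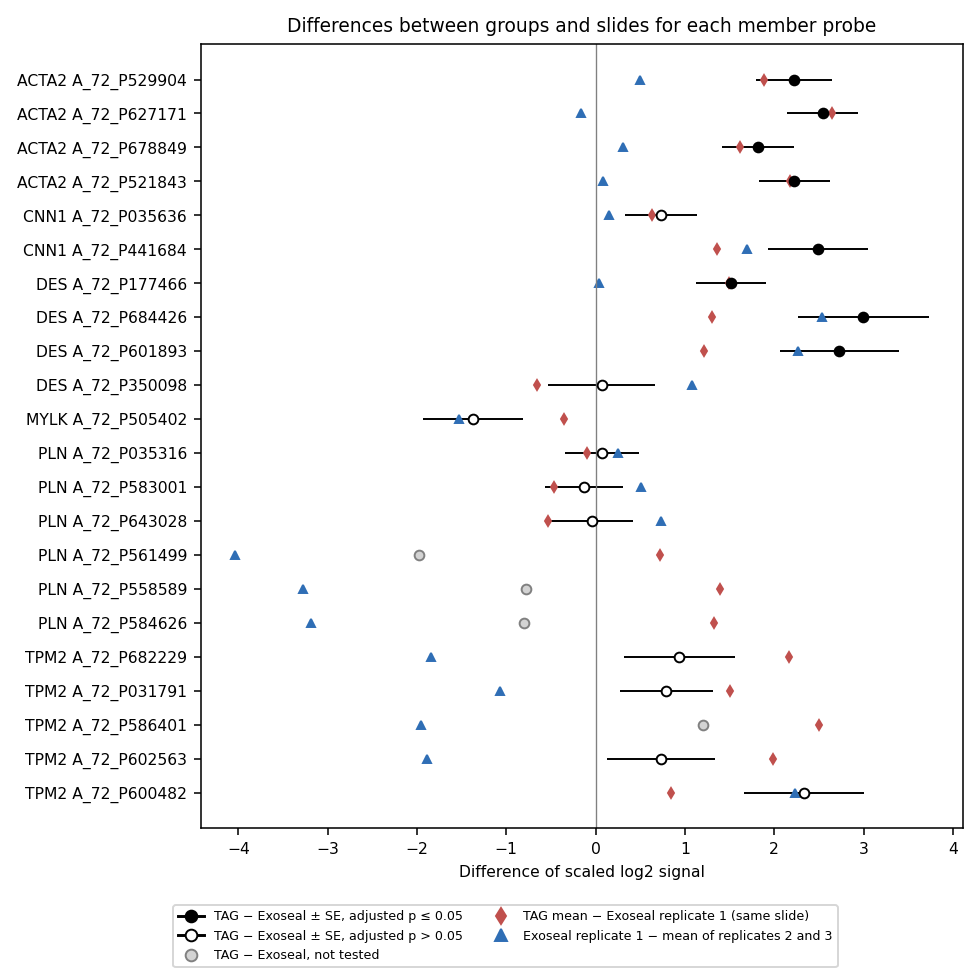
Differences of scaled log2 signal (x axis) for each of the 22 member probes. Circles are TAG minus Exoseal with limma standard errors, filled where the adjusted p was at most 0.05 and grey where not tested, diamonds are the TAG mean minus Exoseal replicate 1 on the same slide, and triangles are Exoseal replicate 1 minus the mean of replicates 2 and 3. ACTA2 triangles lie near 0, from -0.16 to 0.50, whereas that of TPM2 probe A_72_P586401 is at -1.95 and that of DES probe A_72_P684426 reaches 2.54. The 3 untested PLN probes were not well above background on slide 1, so their positions are set by background there.

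Spread between arrays was, by its median, somewhat lower for member probes than for all probes in Exoseal and close to it in TAG. Both member medians lay between the 25th and 75th percentiles of all tested probes, 0.46 and 1.08 in Exoseal and 0.22 and 0.55 in TAG. The probes were not matched for brightness. The median SD of the 18 tested probes was 0.57 in Exoseal, against 0.72 over all tested probes, and 0.37 in TAG, against 0.35. Single members ran from 0.05 to 1.47 in Exoseal and from 0.09 to 0.83 in TAG. The lowest Exoseal SD was that of ACTA2 probe A_72_P521843 and the highest that of DES probe A_72_P684426.

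Differences between 2 genes on the same array cancel a factor shared by all its probes, but not one that varies with signal level. They compare the proportion of the processed signals, though not which of the 2 moved. Quantile normalisation moved the difference of the brightest probe from 1.52 to 0.75 in DES and from 0.73 to -0.37 in CNN1. In ACTA2 it went from 2.22 to 2.05 and in PLN from 0.07 to 0.26. The pairs were not computed under another normalisation. MYLK minus TPM2, by their brightest probes, was -0.09, -0.26 and -0.18 in TAG and 2.34, 1.84 and 2.22 in Exoseal. Exoseal replicate 1 stood with its own group here, although for each gene alone it differed from its partners, by -1.53 for MYLK and -1.84 for TPM2. The kinase was thus lower relative to tropomyosin in TAG, by a difference of -2.31 (exact permutation p = 0.1, 0.167 after adjustment over the 15 pairs). CNN1 minus DES was 0.03, 0.22 and 0.22 in TAG and 1.02, 0.84 and 0.96 in Exoseal, a shift of -0.78 with the same exact p. DES minus PLN was 5.50, 5.66 and 6.27 in TAG and 4.22, 4.25 and 4.60 in Exoseal, a shift of 1.45 with the same exact p. In these 3 pairs the groups did not overlap and slide 2 did not stand apart from slide 1.

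Of the 15 pairs, 9 did not overlap between groups, against 35.0% of all 1301691 pairs of named genes. The pairs reuse the brightest probes of 6 genes, so they are not separate results. Only in 3 of the 9, the pairs given above, did slide 2 not stand apart from slide 1. ACTA2 minus MYLK parted furthest, at 1.86, 1.98 and 2.54 in TAG and -0.11, -2.46 and -1.82 in Exoseal. The shift was 3.59, and 2.24 against Exoseal replicate 1 alone. ACTA2 also gained on PLN by 2.15, on CNN1 by 1.49 and on DES by 0.70. Against Exoseal replicate 1 alone these gains were 1.99, 1.25 and 0.39. In the pairs of ACTA2 with MYLK, PLN, CNN1 and DES both slide 2 arrays lay below every slide 1 array. Against TPM2 the ACTA2 values overlapped, at 1.72 to 2.36 in TAG and -0.62 to 2.23 in Exoseal (shift 1.28, exact permutation p = 0.3).

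**Figure D4:**
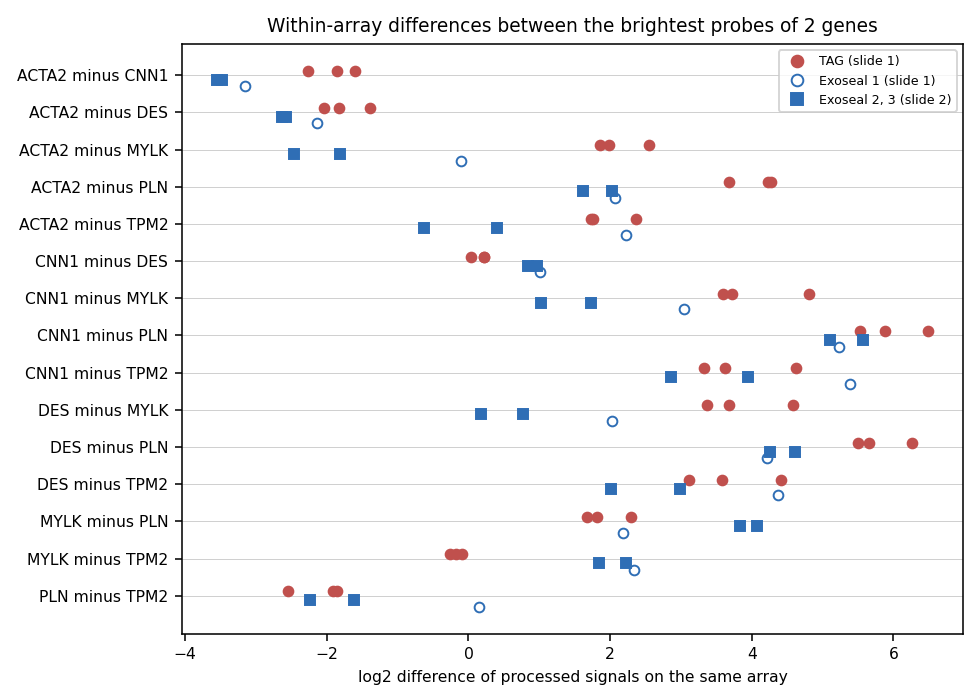
Within-array log2 differences (x axis) between the brightest probes of each of the 15 pairs of member genes, with TAG as filled circles, Exoseal replicate 1 as a hollow circle and Exoseal replicates 2 and 3 as squares. For MYLK minus TPM2 the 3 TAG arrays lie between -0.26 and -0.09 and the 3 Exoseal arrays between 1.84 and 2.34.

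Other genes of the contractile machinery were read by their brightest probe from lists by role, without the 6 genes. Among brightest probes of named genes, 5.70% rose and 3.04% fell. Of the other thin filament genes 3 were tested and 1 rose, TPM1, the alpha tropomyosin gene, by 1.95 ± 0.54 (adjusted p = 0.0490, limma), and the list's median was 0.65. TPM1 shared the slide pattern of TPM2: Exoseal replicate 1 differed from its partners by -1.36. None of the 3 genes of the myosin motor and its switch passed. MYL6, the essential light chain, differed by 0.87 (adjusted p = 0.266, limma), PPP1R14A, an inhibitor of myosin phosphatase, by 0.61 (adjusted p = 0.475, limma), and PPP1CB, a catalytic subunit of that phosphatase, by -0.07 (adjusted p = 0.937, limma). None of the 3 intermediate filament and anchor genes passed: CAV1, caveolin, differed by 1.22 (adjusted p = 0.0997, limma) and VCL, vinculin, by -1.13 (adjusted p = 0.108, limma).

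Calcium handling, the role of PLN, held 6 other tested genes, and none passed (median 0.34). ATP2A2, the pump that phospholamban inhibits, differed by -1.82 ± 0.57 (adjusted p = 0.0673, limma), and STIM1, the calcium sensor of the reticulum, by -0.93 (adjusted p = 0.212, limma). Of 6 tested receptors and cyclic nucleotide genes 1 fell, EDNRB, an endothelin receptor. No TAG array showed it well above background, and it was at least 3.34-fold lower in TAG (adjusted p = 0.0419, limma), taking the lowest well-detected signal of each TAG array as its bound. It entered the test only through the Exoseal arrays, where it was high, so its call is given as a description. The regulators of contractile genes around serum response factor and myocardin had 9 tested genes, of which 3 rose and none fell (median 0.71). GATA6 rose by 2.65 ± 0.46 (adjusted p = 0.0229, limma), KLF4 by 2.50 ± 0.52 (adjusted p = 0.0284, limma) and TEAD1 by 3.03 ± 0.71 (adjusted p = 0.0342, limma). Against Exoseal replicate 1 alone, on the same slide, the TAG means were higher by 1.99, 1.50 and 1.62. That replicate exceeded the mean of its partners by 0.99, 1.49 and 2.13. GATA6 and TEAD1 are transcription factors known to act on smooth muscle genes, and KLF4 is known as a repressor of the contractile programme. MYOCD, myocardin itself, differed by -0.52 (adjusted p = 0.562, limma).

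Several members are made by other cells as well, so markers of those cells are given beside them. Myofibroblasts contain alpha actin, and of 7 fibroblast and myofibroblast genes tested 6 rose and none fell. COL5A1 rose by 3.25 ± 0.65, CTGF by 2.42 ± 0.48, SPARC by 2.01 ± 0.47 and FBN1 by 1.70 ± 0.42. The bright DCN differed by 0.91 and did not pass. Against Exoseal replicate 1 alone these differences were 2.33, 1.97, 1.42, 1.64 and 0.69, in the same order. The summed level of the list, in units of each array's 75th percentile, was 1417 to 1963 in TAG and 214 to 472 in Exoseal, with replicate 1 at 472, and without COL5A1, the largest of them, it was 432 to 501 in TAG and 170 to 226 in Exoseal. Like ACTA2, it was higher on every TAG array. The smooth muscle list summed to 470 to 556 in TAG and 256 to 289 in Exoseal, with ACTA2 and DES the 2 of 7 that rose. That list is the 6 genes and MYOCD, with CNN1 the largest, so its sum repeats the members. RGS5, the pericyte marker tested, differed by 0.81 (adjusted p = 0.232, limma), with levels of 115 to 148 in TAG and 54.6 to 97.8 in Exoseal. The part of these cell types in the ACTA2 values was not tested.

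Skeletal muscle contains desmin, beta tropomyosin and, in slow fibres, phospholamban. Of 21 skeletal muscle markers on the array 20 were tested, 1 rose, ACTA1, and none fell, with a median of -0.06 and no marker below background on all arrays. Their summed level was 77.9 to 108 in TAG and 36.6 to 84.1 in Exoseal. Without ACTA1 it was 30.5 to 52.0 and 26.0 to 75.1. TNNC1, a troponin of slow and cardiac muscle, differed by 1.44 (adjusted p = 0.110, limma). Within the Exoseal group the list was split. MYH2, MYOT and MYOZ1 were well above background on replicates 2 and 3 and not on replicate 1, as were the dim PLN probes. Those PLN probes were well above background on no TAG array, whereas MYH2 and MYOZ1 were on 1 and MYOT on 2. MYL1 and TNNC2 on replicate 1 differed from the mean of its partners by -2.65 and -1.88. TNNI2, TNNI1, MYOD1 and TNNT1 were higher on replicate 1, by 3.96, 2.75, 2.22 and 2.12. The part of skeletal muscle in the DES, TPM2 and PLN values was not tested. Of 4 cardiac markers on the array 2 were tested and none passed, with a summed level of 7.86 to 14.3 in TAG and 4.68 to 4.89 in Exoseal. ACTC1 was described with the actins, TNNI3 differed by 0.56, and NPPB was not above background on any array.

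Of 3 endothelial genes tested CDH5 fell by 2.47 (adjusted p = 0.0322, limma), and PECAM1 differed by -1.57 (adjusted p = 0.163, limma). Against Exoseal replicate 1 alone the differences were -1.49 for CDH5 and -0.51 for PECAM1. The endothelial list summed to 5.67 to 9.71 in TAG and 14.6 to 53.5 in Exoseal. Of 9 macrophage and monocyte genes tested 4 fell, ACP5, LYZ, AIF1 and CD86, and none rose, with sums of 17.4 to 26.3 and 74.2 to 165. Of 8 T and NK cell markers on the array 2 were tested, CD8A at 1.05 and GZMB, which was not well above background on TAG arrays, and neither passed, with sums of 1.83 to 2.00 and 0.81 to 2.89 and CD4 not above background anywhere. Of 3 adipocyte genes tested none passed, FABP4 at -0.16 and LPL at -0.79, with sums of 80.9 to 92.6 and 81.5 to 122. The part of these cells in the levels of the 6 genes was not tested.

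The genes whose scaled values ran most like each member were taken from 1608 other named genes by Pearson's r over the 6 arrays, as a description that shares the arrays, their slides and their scaling. Closest to ACTA2 were ARPC2 and ARHGEF2 (r = 0.997 each) and ATXN3 (0.996). Closest to DES were CLN3 (0.996), ACTA1 (0.991) and IGFBP6 (0.991), and close to CNN1 were RPL35 (0.992) and CYP2C49 (0.989). MYLK ran with PMM1 (0.991), MIOS (0.983) and ETS1 (0.983), and TPM2 with SLC11A1 (0.960), ATF4 (0.953) and RPL29 (0.942). PLN had the least close neighbours, SERPINE2 (0.900), TFIP11 (0.894) and CLK1 (0.846).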

How the data were processed

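Cy3-labelled RNA amplified from each of the 6 samples was hybridised to an Agilent 1-colour array, per the labels' protocols. The intensity of each spot in the deposited files was read with Agilent Feature Extraction 11.0.1.1, per the submitters' processing notes, and the processed signal in them is background-subtracted per the file headers. The authors' deposited table of 43663 probes is on a log2 scale by its values, with a shared median of 3.40 on every array. Its 75th percentile, 5.59, was also the same on every array. The sources used here do not give its normalisation, and it served as an alternative. The differences of the brightest CNN1 and DES probes in it, -0.39 and 0.73, were close to those with quantile normalisation, -0.37 and 0.75. These 2 alternatives are therefore not separate checks.

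Of 45220 spots per array 1417 were controls and left out, as were spots with an outlier flag, which removed 223 of 43603 probes. From the log2 processed signal of each probe the log2 75th percentile of its array was subtracted, with no summary over a gene's probes. Probes were named through unversioned RefSeq accessions and a table of pig genes (5461 probes, 2389 genes). Probes well above background on at least 3 arrays were tested with limma 3.58.1 in R 4.3.3, two-sided, without covariates, with Benjamini-Hochberg adjustment over all 22720 probes and a threshold of 0.05. The number of arrays limits the precision. The fit was first tested on simulated data.

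The members, the lists and the rule for named genes were chosen with earlier results of these data known. The rule names every member probe, up to 4 passing genes per role or the 2 with the smallest p, the 3 genes most like each member, and the 2 brightest and up to 4 passing genes of each marker list. For CNN1, 1 of the 3 most like genes is not reported here. Of the erythrocyte markers none was on the array. The description field of the samples speaks of another experiment and was not used. The mean spot signal was not among the columns used, so the normexp alternative (offset 50) and the rank before correction took the median spot signal. Alternatives covered scaling, background, filter, slide, a replicate block, each left-out sample, Exoseal replicate 1 counted as TAG and the choice of probe. Keeping the outlier spots was added after seeing the data. Replicate numbers are not known to pair the samples. Deviations of same-numbered samples from their group means correlated at -0.18, 0.09 and -0.07. As the slides divide the Exoseal replicates, these values cannot tell whether same-numbered samples shared an animal.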

Additional observations from a re-analysis of the deposited data

How the results depend on the processing

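Against 2443 of all probes called, median scaling gave 1049, normexp with quantile normalisation 1607, Exoseal replicate 1 counted as TAG 3788, no filter on dim probes 0 (14128 at an unadjusted p under 0.05 in limma), and leaving out 1 sample 0 to 7715. Against 8 member probes called, median scaling gave 2, no filter 0, slide as a block 3, slide 1 alone 5, Exoseal replicate 1 as TAG 5 (4 higher and MYLK lower, without ACTA2), the brightest probe per gene 2, the mean of a gene's probes 1, and leaving out 1 sample 0 to 10. The fit with a replicate block called 0 of all probes and 0 of the members (6381 at an unadjusted p under 0.05), with numbers that are not known to pair samples. Higher against lower calls were 1604 to 839, but 492 to 557 with median scaling and 1629 to 1523 with quantile normalisation, and 1136 to 907 with slide as a block. Median scaling moved the median of all probes from 0.08 to -0.39.

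Signs turned only in differences that had not passed. CNN1 probe A_72_P035636 went to -0.37 (quantile), -0.35 (normexp) and -0.39 (the authors' deposited table). DES probe A_72_P350098 went to -0.40 (median scaling), -0.34 (quantile), -0.059 (normexp), -0.40 (the authors' deposited table), -0.65 (slide as a block and slide 1 alone) and -0.40 to 0.53 without single samples. PLN probe A_72_P035316 went to -0.39 (median scaling), -0.10 (slide as a block and slide 1 alone) and -0.042 to 0.25 without single samples. The mean of the PLN probes, which includes the 3 untested dim ones, was -0.61. PLN probe A_72_P583001 went to 0.0035 (75th percentile of probes detected on all arrays), 0.046 (quantile), 0.040 (the authors' deposited table), 0.16 (Exoseal replicate 1 as TAG) and -0.34 to 0.045 without single samples. PLN probe A_72_P643028 went to 0.093, 0.11, 0.11 and 0.33 in these settings, to 0.070 (normexp) and to -0.22 to 0.20 without single samples. With Exoseal replicate 1 as TAG, TPM2 probes A_72_P682229 and A_72_P602563 went to -0.22 and -0.39. The rank difference, in percentile points, turned for CNN1 by its brightest probe (from 7.58 to -0.17) and for PLN by its brightest probe (from -11.9 to 1.35) and within slide 1 (5.42). The causes were not tested. The values of the 18 tested probes were counted together with those by brightest probe and by mean of probes per gene. In all, 212 values kept their sign and their side of the threshold, 80 no longer passed, 9 newly passed and 34 had the other sign. Signal over background limits the dim PLN set, A_72_P350098 of DES and EDNRB on the TAG arrays.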
